A study of Mus musculus with 6 samples.

Results

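H19 and the imprinted genes expressed with it in myogenic cells were followed through 10 genes, H19, Meg3, Rian, Mirg, Mest, Peg3, Plagl1, Dlk1, Grb10 and Ndn, in cultured muscle satellite cells (MuSCs), the stem cells of skeletal muscle. The genes were picked by symbol, with the difference in H19 between the groups already known, so their levels in the 2 groups are described, and calls that the fit over all genes gave them are stated without being read as evidence. Of the 10 members, 9 had a row among the 20654 genes of the count table. The filter on low counts, which kept 8551 genes for testing, was passed by 6 members, and the level of Mirg was not analysed here. The level of Igf2, the gene that shares control elements with H19, was not analysed here either.

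Imprinted genes are transcribed mainly from the allele inherited from a single parent, because DNA methylation laid down in the germ line silences the other allele. H19 is a long non-coding RNA made from the maternal allele that is abundant in the embryo, falls in most organs after birth and stays expressed in skeletal muscle, where it hosts a microRNA and binds RNA and chromatin proteins. Together with Igf2, Dlk1, Mest, Peg3, Plagl1 and others it forms a network of growth regulators that are co-expressed before birth and silenced with age, and the transcription factor PLAGL1 is among their regulators.

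The study compared MuSCs of mice bred to lose the mechanosensitive ion channel PIEZO1 with control MuSCs to learn which genes depend on the channel. The 3 control libraries are called wild type in the labels, and a figure legend of the paper names the RNA-seq controls Pax7CreERT2/+. The 3 Piezo1 cKO libraries came from Piezo1 flox/flox; Pax7CreERT2/+ mice, and both groups were on a C57BL/6 background. Cre is driven by Pax7, so it acts in satellite cells, and both groups carry the CreERT2 allele per the paper. Both were also exposed to tamoxifen before isolation and to 1 µM 4-OH TMX in the medium. VCAM1-positive cells negative for CD31, CD45 and Sca1 were sorted from limb muscle and grown for 3 d on Matrigel in 30% foetal bovine serum, chicken embryo extract and 10 ng/ml basic fibroblast growth factor. The age of the mice is not given in the sources used here. Each library is a bulk sample of cultured cells, in which fewer cells of a type and less RNA per cell cannot be told apart, and its counts do not separate the parental alleles.

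Control libraries 1 to 3 held 740936, 931168 and 891531 counts, those labelled Piezo1 cKO held 810096, 726378 and 769295, and 14432 to 14786 genes were detected per library. A count is a unique molecular identifier, a tag that marks a cDNA molecule primed at the poly(A) tail, so levels of different genes are compared without division by transcript length. Levels are given as CPM, the counts divided by the effective library size and multiplied by 1e6. The floor of 3 counts corresponded to 3.35 to 4.31 CPM. Piezo1 (chr8:122481698-122551329, minus strand, GRCm38) was counted 11, 5 and 6 times in control, and in those labelled Piezo1 cKO it was counted 7, 12 and 9 times. The groups overlapped, at 9.49 ± 5.53 and 12.2 ± 3.50 CPM (SD, n = 3 each), and the ratio of the pooled counts was 1.35 (95% interval from 0.744 to 2.47, counting error only). An exact two-sided permutation test gave p = 0.50, where the smallest p that 3 libraries against 3 allow is 0.10. The counted ends lie at the 3' end of transcripts and the floxed exons are not given in the sources used here, so the deletion could not be checked from these counts and Piezo1 cKO stands for libraries so labelled throughout. The study checked the deletion by other means, with RT-qPCR of Piezo1 and calcium influx after a PIEZO1 agonist in MuSCs of both groups. Neither was analysed here. Exons of Piezo1 overlap Ctu2 on the opposite strand.

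All 9 markers of MuSCs and myoblasts were detected in every library, and none was called between the groups, where 0.784% of all genes were called. The summed level of 9 such genes, led by Chrna1 and including Pax7 and Myod1, was 4836, 4094 and 4527 CPM in control and 4624, 3526 and 4167 CPM in Piezo1 cKO, with overlapping groups. Pax7 itself had 10, 26 and 19 counts in control against 16, 5 and 12 in Piezo1 cKO. Of the 9 genes 1 was higher and 2 were lower without overlap, against 8.2% higher and 8.31% lower over all genes. The 2 lower genes included the sort marker Vcam1 (140 ± 14.6 against 102 ± 15.5 CPM, SD, n = 3 each, named after its values were seen). A pair of libraries stood apart on differentiation markers. Summed over 11 myocyte genes, of which Acta1 was the most abundant, control had 500.5, 198.5 and 448.7 CPM and Piezo1 cKO 768.1, 1914 and 975.2 CPM. Control 2 was lowest and Piezo1 cKO 2 highest, and Myog, the gene of the differentiation factor myogenin (named after its values were seen), had 40, 3 and 45 counts against 63, 203 and 92. Differences of the tested members are therefore given with and without these libraries.

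The members were annotated on GRCm38, and the sequences that tie H19 and Mest to small RNAs are shown because both genes host a microRNA that the poly(A)-primed counts do not measure. H19 lies at chr7:142575529-142578143 on the minus strand, and the hairpin of miR-675 lies in an exon of 3 of its 7 annotated transcripts. Mest lies at chr6:30723547-30748465 on the plus strand, and miR-335 lies within the gene, outside the exons of all 11 annotated transcripts. The mature RNAs are miR-675-5p (chr7:142577112-142577133), miR-675-3p (chr7:142577078-142577099), miR-335-5p (chr6:30741314-30741336) and miR-335-3p (chr6:30741354-30741375), from RefSeq on GRCm38.p6. Capitals mark the seed, bases 2 to 8, and no other mature microRNA of the table shared any of these 4 seeds.
mmu-miR-675-5p: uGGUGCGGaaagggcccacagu
mmu-miR-675-3p: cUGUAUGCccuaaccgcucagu
mmu-miR-335-5p: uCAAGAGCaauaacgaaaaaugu
mmu-miR-335-3p: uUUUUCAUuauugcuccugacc

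Mest and Peg3 are shown at the starts of their transcripts because both genes are expressed from the paternal allele and CpG dinucleotides are the bases at which an imprint is written. The Mest stretch is chr6:30737800-30738049 (plus strand, 250 bases upstream of a start, in an intron of longer Mest transcripts) and holds 14 CpG dinucleotides. The Peg3 stretch is chr7:6730432-6730577 (read 5' to 3' on the minus strand), the 146 bases between Peg3 and Usp29, which start in opposite directions, and holds 5 CpG. Both are RefSeq sequence on GRCm38.p6, with CpG in capitals.
Mest upstream: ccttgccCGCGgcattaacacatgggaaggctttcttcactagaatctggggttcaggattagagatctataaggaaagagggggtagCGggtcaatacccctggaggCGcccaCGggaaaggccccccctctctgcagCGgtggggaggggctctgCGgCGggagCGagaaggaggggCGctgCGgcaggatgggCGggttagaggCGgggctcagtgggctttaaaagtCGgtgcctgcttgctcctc
Peg3 upstream: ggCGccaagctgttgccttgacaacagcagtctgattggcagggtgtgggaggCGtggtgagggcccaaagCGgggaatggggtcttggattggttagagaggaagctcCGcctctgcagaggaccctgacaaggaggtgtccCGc

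Windows of 300 bases around a RefSeq start, 250 before it and 50 after, were found for 9 of the 10 members, all but H19. On both strands, 32851 such windows were scanned. TGCCGC, the core bound by the imprint keeper ZFP57 when methylated, was found 2 times in the Mest window at the stretch above and 1 time in windows of Grb10, Meg3 and Plagl1, and 11.6% of all windows hold it. GGGGCCCC, a PLAGL1-like GC-rich core, was found in the Peg3 window, and 1.1% of all windows hold it. The myogenic E-box CAGCTG was found in a window at an upstream Mest start, and 16.3% of all windows hold it. The members' windows ranged from 0 CpG at Rian to 45 CpG at a Grb10 start, with 26 at Plagl1, against a median of 7 CpG over all windows. These matches describe the letters only.

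Among the non-coding members, H19 was the gene that rose. Its counts in libraries 1 to 3 were 101, 72 and 123 for control against 223, 200 and 163 for Piezo1 cKO. These are levels of 145, 80.3 and 145 CPM against 283, 264 and 216 CPM, so every Piezo1 cKO library lay above every control library, and control 2 was the lowest of the 6. The means were 123.6 ± 37.5 and 254 ± 34.4 CPM (SD, n = 3 each), a 2.08-fold difference (log2 fold change 1.05, standard error 0.17, edgeR). In the order of mean levels of the 8551 tested genes, H19 stood at place 2099 in control and at place 856 in Piezo1 cKO. Without control 2 the log2 fold change of H19 was 0.81, without Piezo1 cKO 2 it was 1.02 and not called, and without both libraries it was 0.78 and called. Exons of predicted genes lie opposite H19, so without strand their reads cannot be told apart from its own.

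The 3 members of the chromosome 12 domain with a row in the table were at low counts. Meg3 (chr12:109541001-109571726), a maternally expressed non-coding RNA with growth-restraining functions, had 7, 2 and 1 counts in control against 2, 3 and 5 in Piezo1 cKO, with overlapping groups. Both groups summed to 10 counts, for a ratio of 1.06 (95% interval from 0.396 to 2.84, counting error only). Control 1 held 7 of the 10 control counts. Without it the log2 ratio of Dlk1, Meg3 and Rian together went from 0.12 to 1.00, and without control 3 to -0.24. Rian (chr12:109603940-109661716), the host of many small nucleolar RNAs, had a single count in control 2 and in Piezo1 cKO 3. Dlk1 (chr12:109452823-109463336), a paternally expressed transmembrane ligand of the Notch family that restrains differentiation, had 1 count in control 3 and 2 counts in Piezo1 cKO 2. Rian and Dlk1 were at or under the floor in every library and no fold is given for them, and a difference in either was not detectable at this depth.

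**Figure D1:**
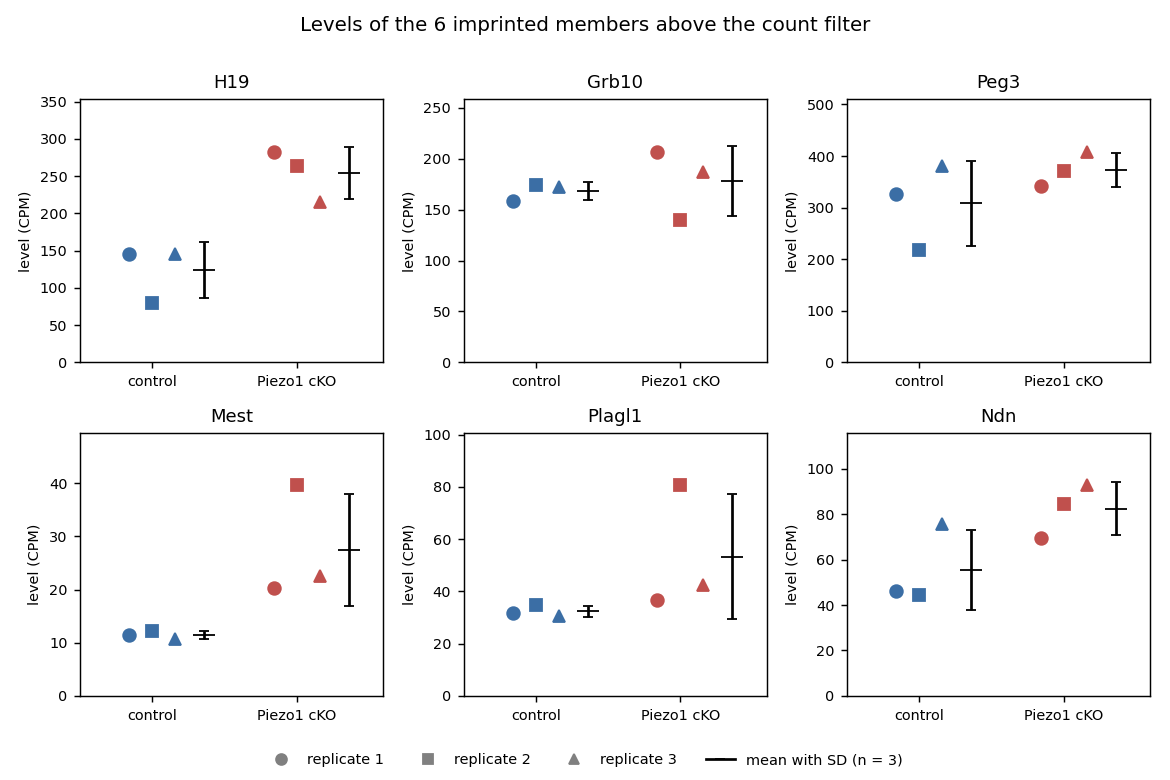
Level in CPM (vertical axes, each starting at 0) of the 6 members that passed the filter, in control (blue) and Piezo1 cKO (red), with the symbol giving the replicate and the bar the mean with SD (n = 3 each). H19, Mest and Plagl1 do not overlap between the groups, whereas Peg3, Grb10 and Ndn do, and control 2 is the lowest library for H19 and Peg3.

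Mest, also called Peg1, encodes an alpha/beta-hydrolase-fold protein of the endoplasmic reticulum made from the paternal allele. It had 8, 11 and 9 counts in control against 16, 30 and 17 in Piezo1 cKO, or 11.5, 12.3 and 10.6 CPM against 20.3, 39.6 and 22.5 CPM. The groups did not overlap, control varied little and Piezo1 cKO 2 was the highest library. Mean levels were 11.5 ± 0.82 and 27.5 ± 10.6 CPM (SD, n = 3 each), a log2 difference of 1.24 (standard error 0.35). That difference was not called in edgeR over all genes, and it was 0.89 without Piezo1 cKO 2 and 0.95 without both libraries that stood apart.

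The regulators of transcription and growth among the paternally expressed members had higher mean levels in Piezo1 cKO, and none was called. Plagl1 (chr10:13060504-13131694) encodes a zinc finger factor that activates other genes of the network. Its counts were 22, 31 and 26 in control and 29, 61 and 32 in Piezo1 cKO, and its levels were 31.6, 34.6 and 30.7 against 36.8, 80.6 and 42.4 CPM. Every Piezo1 cKO library lay above every control library, but the lowest of them was only just above the highest control, and Piezo1 cKO 2 stood far above the rest. The means were 32.3 ± 2.02 and 53.2 ± 23.8 CPM (SD, n = 3 each). Its log2 difference of 0.71 (standard error 0.26) became 0.29 without Piezo1 cKO 2 and 0.34 without both libraries that stood apart.

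Peg3 (chr7:6703892-6730431), a paternally expressed zinc finger protein with roles in cell survival and muscle stem cells, was the most abundant member. Its counts were 227, 195 and 322 in control and 270, 281 and 308 in Piezo1 cKO, and its levels were 326, 218 and 380 against 342, 371 and 408 CPM. Control 3 reached above 2 of the Piezo1 cKO libraries, so the groups overlapped, and control 2 was again the lowest. Means of 308 ± 82.9 and 374 ± 33.0 CPM (SD, n = 3 each) gave a log2 difference of 0.28 (standard error 0.15), which was 0.08 without control 2 and 0.08 without both libraries that stood apart. It was 0.47 when control 3 alone was left out.

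Ndn (chr7:62346569-62350262) encodes necdin, a MAGE-family protein that binds E2F1 and p53 and promotes differentiation and survival of myoblasts. It had 32, 40 and 64 counts in control against 55, 64 and 70 in Piezo1 cKO, or 46.0, 44.6 and 75.6 CPM against 69.7, 84.5 and 92.8 CPM. Control 3 was above Piezo1 cKO 1, and the other 2 control libraries were the lowest. The mean level was 55.4 ± 17.5 CPM in control and 82.3 ± 11.7 CPM in Piezo1 cKO (SD, n = 3 each), a log2 difference of 0.56 (standard error 0.20) that was 0.39 without both libraries that stood apart. Leaving out control 3 alone raised it to 0.86.

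Grb10 (chr11:11930508-12038683), an adaptor that restrains insulin and IGF receptor signalling and is made from the maternal allele outside neurons, was nearly level between the groups. Its counts were 110, 156 and 146 in control and 163, 106 and 141 in Piezo1 cKO, and its levels were 158, 174 and 172 against 207, 140 and 187 CPM. Piezo1 cKO held both the highest and the lowest library. Means were 168 ± 8.70 and 178 ± 34.2 CPM (SD, n = 3 each), with a log2 difference of 0.08 (95% interval from -0.22 to 0.37). Its sign turned to -0.05 when Piezo1 cKO 1 was left out, and it was 0.25 without both libraries that stood apart.

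Of the 6 members tested, 1 was called in edgeR at an adjusted p under 0.05, against 0.784% of all genes tested. Higher calls were 0.468% and lower calls 0.316% of all genes, so 59.7% of the 67 called genes were higher, a share that became 73.1% when libraries were scaled by total counts alone, 44.4% of 27 with DESeq2 and 46.8% of 47 without both libraries that stood apart. In 3 of the 6 members every Piezo1 cKO library lay above every control library, against 8.2% of all genes, and in 0 every library lay below, against 8.31%. DESeq2 called H19 alone of the 4 members to which it gave an adjusted p, against 0.674% of all such genes. The fold change was positive in 6 of 6, with a median log2 difference of 0.64, where the median over all tested genes was 0.0021 and 50.2% were positive. Because the members were chosen with this contrast known, nothing is read from these counts. All 6 were also positive with DESeq2, DESeq2 size factors, total counts, cyclic loess and no filter, and with single libraries left out the exception was Grb10 without Piezo1 cKO 1. Mest did not enter the fit that required 10 counts in every library.

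**Figure D2:**
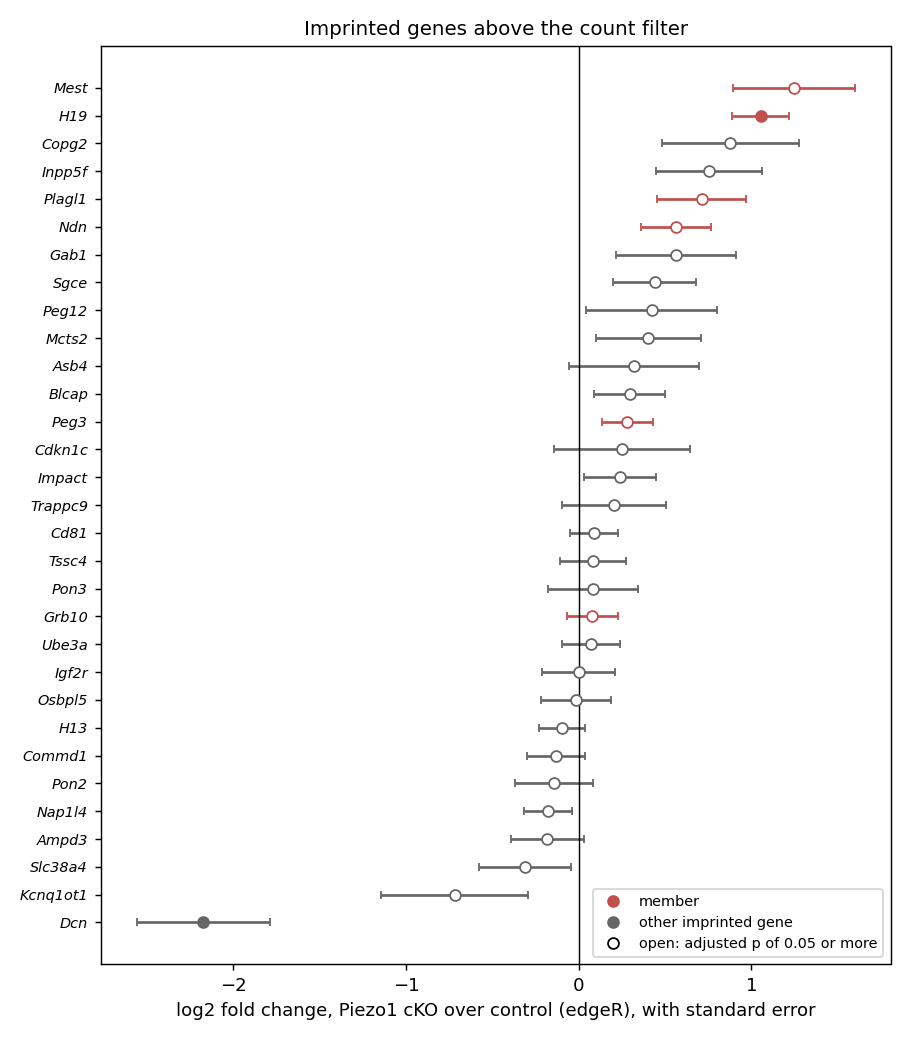
Log2 fold change of Piezo1 cKO over control (horizontal axis, edgeR) with its standard error for the members (red) and the other imprinted genes (grey) that passed the filter, 3 libraries per group. Filled points, H19 and Dcn, had an adjusted p under 0.05, and all 6 members lie right of 0.

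Levels were also summed by the allele that is expressed, where H19 and Grb10 make up nearly all of the maternal sum. The maternally expressed members H19, Meg3, Rian and Grb10 together had 313.5, 257.7 and 318.8 CPM in control and 491.8, 408.1 and 410.8 CPM in Piezo1 cKO, without overlap. The paternally expressed members Dlk1, Mest, Peg3, Plagl1 and Ndn had 415.6, 309 and 498.3 CPM against 469, 578.5 and 565.8 CPM, with Piezo1 cKO 1 below control 3. The means went from 297 to 437 CPM for the maternal and from 408 to 538 CPM for the paternal members, and the sums of the 2 alleles were not compared by a test. H19 made up 19.9%, 14.2% and 17.8% of all counts on the members in control and 29.4%, 26.8% and 22.1% in Piezo1 cKO. The ratio of H19 to Peg3, taken within each library and so free of scaling between libraries, was 0.445, 0.369 and 0.382 in control and 0.826, 0.712 and 0.529 in Piezo1 cKO. The ratio of H19 to Grb10 was 0.918, 0.462 and 0.843 against 1.37, 1.89 and 1.16, again without overlap. H19 was chosen with its difference known, and it is part of the maternal sum, the share and both ratios. These values therefore restate the difference in H19 and are no further result. Mean levels went from 123.6 to 254 CPM for H19 and from 168 to 178 CPM for Grb10, the other main part of the maternal sum.

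Peg3 was the highest of the members by mean level in both groups, at place 698 of all tested genes in control and 472 in Piezo1 cKO. H19 and Grb10 changed places below Peg3, which restates the known difference in H19 because Grb10 was nearly level. Grb10, at place 1495 in control and 1360 in Piezo1 cKO, had a higher level than H19 in every control library and a lower level than H19 in every Piezo1 cKO library. Ndn, Plagl1 and Mest followed in that order, at places 4299, 6023 and 8413.5 in control and 3197, 4541 and 6606 in Piezo1 cKO. The ranges of neighbours in this order did not overlap in control. In Piezo1 cKO the ranges of Ndn and Plagl1 overlapped, as did those of Plagl1 and Mest, although within each Piezo1 cKO library Ndn was above Plagl1 and Plagl1 above Mest.

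Members also differed in how much replicates varied. For H19 the SD of log2 CPM between libraries of a group was 0.37 when pooled over the groups, against a median of 0.16 for tested genes of like abundance, at the 98.3rd percentile of those genes. Peg3 was similar, with 0.31 against 0.15, at the 96.2nd percentile. Mest, a low gene, was at 0.34 against 0.34. The larger SD did not fall in the same group. It was in control for H19 (0.48 against 0.20), Peg3 (0.41 against 0.13) and Ndn (0.41 against 0.20). Piezo1 cKO had the larger SD for Plagl1 (0.58 against 0.08), Mest (0.48 against 0.08) and Grb10 (0.29 against 0.07). Each SD rests on 3 libraries and includes counting error, and Mest had only 8 to 11 counts in control. Whether the groups differ in spread was not tested. Control 2 was the low library for H19 and Peg3 and control 3 the high one for Ndn. Piezo1 cKO 2 was the high library for Plagl1 and Mest and the low one for Grb10.

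**Figure D3:**
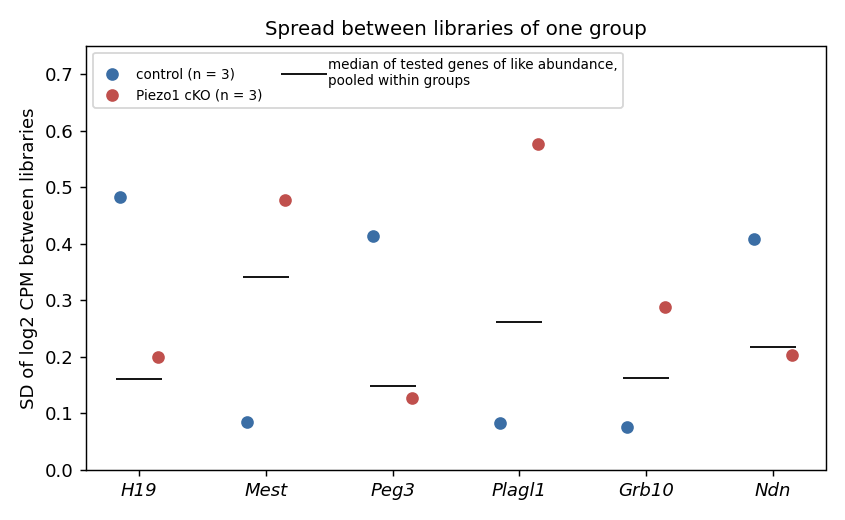
SD of log2 CPM between the 3 libraries of a group (vertical axis) for each tested member, control in blue and Piezo1 cKO in red, with a line at the median of tested genes of like abundance pooled within groups. The SD is larger in control for H19, Peg3 and Ndn and in Piezo1 cKO for Mest, Plagl1 and Grb10, a difference that was not tested.

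Profiles over the 6 libraries were compared by the root-mean-square difference of centred log2 CPM, as a description over libraries that share the group difference. Peg3 and Ndn were the closest pair of members, at 0.22, with 711 tested genes nearer to Peg3 than Ndn was and 192 nearer to Ndn than Peg3 was. Mest and Plagl1 followed at 0.23, with 6 tested genes nearer to Mest than Plagl1 was and 47 nearer to Plagl1 than Mest was. For H19 the nearest member was Ndn at 0.41, with 4.81% of the tested genes (411) nearer, followed by Mest and Peg3 with 5.64% and 5.7% nearer. The farthest was Grb10 at 0.62, with 41.4% nearer. Seen from the other members, larger shares were mostly nearer than H19 was. They were 38.4% of the tested genes for Ndn, 5.03% for Mest, 69.4% for Peg3, 58.2% for Plagl1 and 97.4% for Grb10. The tested genes outside the members most like H19 were Jph2, which encodes a junctophilin of muscle membranes, at 0.14, Mmp23 at 0.16, Midn and Sh3kbp1 at 0.16 each and Dusp27, a muscle pseudophosphatase gene, at 0.16. Those most like Peg3 were Ap5s1 at 0.05, Serpine2, a secreted protease inhibitor, at 0.06, and Slc66a2, H2az2 and Selenok at 0.08 each.

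Neighbours at each imprinted domain were summed with the member. For the Mest domain, Mest and Copg2 together had 23.0, 21.2 and 20.1 CPM in control and 41.8, 54.2 and 41.1 CPM in Piezo1 cKO, without overlap (log2 ratio of means 1.09). Copg2 alone (named after its values were seen) had 8 counts in each control library and 17, 11 and 14 in Piezo1 cKO, and its log2 fold change of 0.88 (standard error 0.40) was not called (adjusted p = 0.354, edgeR). Exons of Mest and Copg2 overlap on opposite strands and the counting is not stated to use strand, so reads of the pair cannot be told apart where they overlap. For the Peg3 domain, Peg3, Usp29 and Zim1 had 348, 225 and 391 CPM against 366, 401.5 and 435 CPM, with overlapping groups. Usp29, which starts back to back with Peg3, had 6, 3 and 2 counts in control against 9, 7 and 8 in Piezo1 cKO, and Zim1 had 9, 4 and 7 against 10, 16 and 12. Both are named after their values were seen and were too low to be tested.

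The 7 genes of the Ndn domain (Ndn, Magel2, Mkrn3, Peg12, Snrpn, Ube3a and Atp10a) summed to 175, 199 and 194 CPM in control and 222, 218 and 231 CPM in Piezo1 cKO, without overlap and with a log2 ratio of 0.24. Most of the difference in the sum was that of Ndn, whose own groups overlapped. Atp10a, named after its values were seen and not tested, went the other way, with 7, 14 and 11 counts in control against 6, 6 and 1 in Piezo1 cKO. Without both libraries that stood apart the log2 ratio was 0.29 for this domain, 0.94 for the Mest domain and 0.12 for the Peg3 domain. The 9 genes from Cdkn1c to Osbpl5, which lie beside H19 on chromosome 7 under their own control region, had 1133, 941 and 1104 CPM against 1071, 1022 and 1065 CPM, a log2 ratio of -0.01. The Igf2r domain was at -0.07, the 6 genes from Peg10 to Asb4 at 0.18 and Grb10 with Ddc at 0.09, each with overlapping groups. The Gnas domain, read through Gnas alone at 6, 6 and 5 counts in control against 2, 9 and 1 in Piezo1 cKO, was at -0.43 and overlapped too, and its ratio was -1.87 without Piezo1 cKO 2, 0.03 without Piezo1 cKO 3 and -1.91 without both libraries that stood apart. Dlk1, Meg3 and Rian together had 10.1, 3.35 and 2.36 CPM against 2.54, 6.60 and 7.95 CPM.

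**Figure D4:**
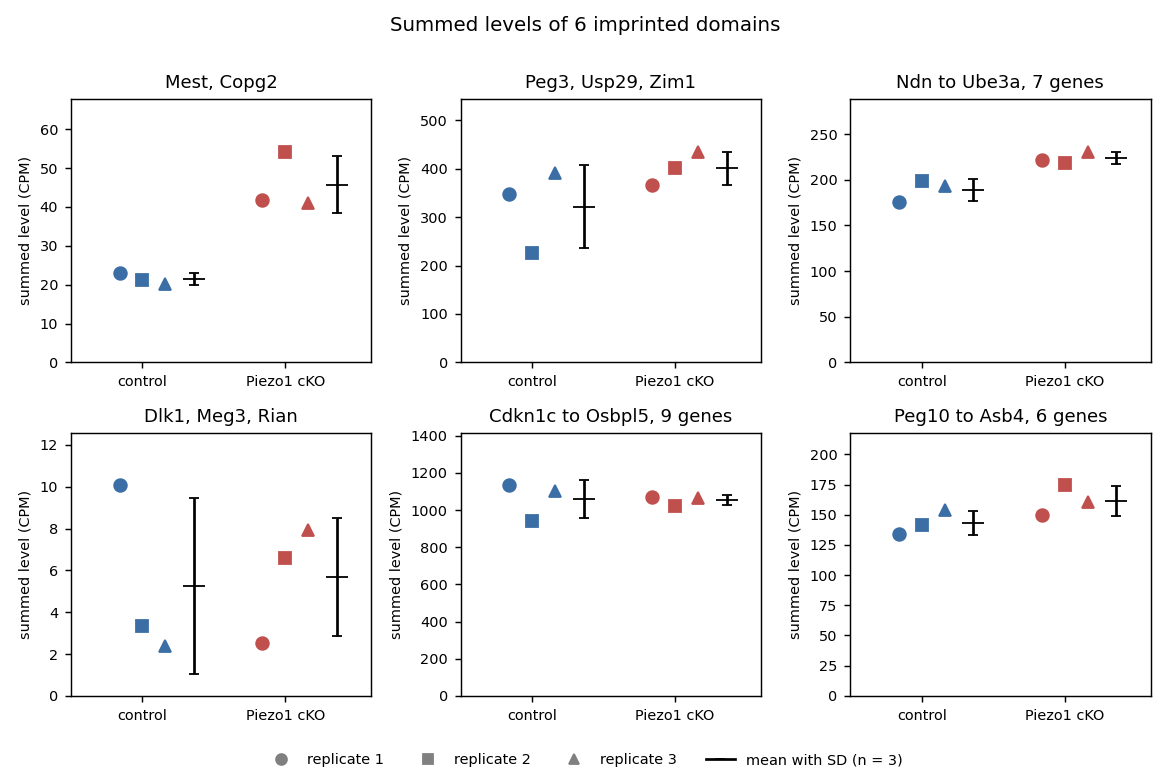
Summed level in CPM (vertical axes from 0) of the genes of 6 imprinted domains in control (blue) and Piezo1 cKO (red), with the mean and SD (n = 3 each). The Mest and Ndn domains separate the groups, whereas the Peg3, Dlk1, Cdkn1c and Peg10 domains overlap.

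Across 47 other imprinted genes with a row, 25 were tested and 15 had a positive and 10 a negative fold change, with a median of 0.08. The call among them was Dcn, which encodes the matrix proteoglycan decorin, is known as imprinted in the placenta and is also a fibroblast marker. Dcn had 18, 23 and 37 counts in control against 8, 5 and 3 in Piezo1 cKO, without overlap, and fell by 2.17 in log2 units (standard error 0.38, adjusted p = 3.9e-04, edgeR). The most abundant were Cd81, H13 and Nap1l4, with log2 differences of 0.09, -0.10 and -0.18, none of them called. The 1 call in 25 stands beside 0.784% called over all genes. An unadjusted p under 0.05 (edgeR) was found for 3 of the 25, against 1019 of 8551 over all genes.

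Genes that keep imprints held 1 call, and 3 had an unadjusted p under 0.05 (edgeR), against 1019 of 8551 over all genes. Of 14 tested, 1 was called, against 0.784% of all genes, and 3 were positive and 11 negative, where 50.2% of all genes were positive, with a median log2 difference of -0.19. Hells, a chromatin remodeller that supports DNA methylation and is high in dividing cells, had 102, 140 and 97 counts in control against 76, 64 and 57 in Piezo1 cKO. The groups did not overlap, and Hells fell by 0.70 in log2 units (standard error 0.17, adjusted p = 0.0148, edgeR). The call was lost without both libraries that stood apart (-0.59, adjusted p = 0.221, edgeR), without control 2, Piezo1 cKO 2 or Piezo1 cKO 3 alone, with total counts and with DESeq2. Among the most abundant genes, Mbd3, a subunit of the NuRD complex, Trim28, a corepressor that ZFP57 recruits, and Uhrf1, which brings DNMT1 to replicated DNA, had log2 differences of -0.22, -0.13 and -0.19 and overlapping groups.

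Proteins known to work with H19 were measured through their transcripts. Over all genes, 0.784% were called in edgeR, 1019 of 8551 had an unadjusted p under 0.05, and DESeq2 called 0.674%. Of 8 tested partner genes none was called in edgeR, with 1 at an unadjusted p under 0.05 and 0 called by DESeq2, and the median log2 difference was -0.07. Rbbp7, Rbbp4 and Elavl1 were the most abundant, with differences of -0.20, 0.07 and -0.07, and Igf2bp1 and Igf2bp3, known binders of H19, had 0 counts in every library. Genes known as targets of miR-675 or of let-7, a microRNA family that binds H19, also gave 0 calls of 13 tested in edgeR, with 4 at an unadjusted p under 0.05 and 0 called by DESeq2, to be read against the same shares over all genes. Ccnd1, Myc and Nras led them by level. Their differences were -0.32, -0.46 and 0.15, and the median of the list was -0.07. The list mixes targets of miR-675 and of let-7, so its median describes neither set alone. Without overlap, 1 of the 13 was higher (Hmga2) and 2 were lower (Cdc6 and Myc), against 8.2% and 8.31% over all genes. Hmga2 and Cdc6 are named after their values were seen. Searched on the sense strand of the 7 annotated H19 transcripts, the let-7 seed match CTACCTC had 0 matches. Only this exact match was searched, and other forms of binding site were not.

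The IGF axis, on which Grb10 acts, held 2 calls of 15 tested genes in opposite directions, against 0.784% of all genes, with a median log2 difference of 0.02. An unadjusted p under 0.05 (edgeR) was found for 4 of them, against 1019 of 8551 over all genes. These were Igfbp2, Igfbp3 and, named after their values were seen, Igfbp4 and Igfbp5 (log2 differences of 0.55 and 0.62, not called). Igfbp2, a secreted IGF binding protein, had 46, 25 and 46 counts in control against 64, 108 and 90 in Piezo1 cKO, and rose by 1.23 in log2 units (standard error 0.25, adjusted p = 0.0141, edgeR). Igfbp3, another IGF binding protein, had 350, 641 and 467 counts against 373, 232 and 220, and fell by 0.73 (standard error 0.16, adjusted p = 0.0159, edgeR). The groups did not overlap in CPM for either gene, and control 2 was the extreme control library for both genes. Without both libraries that stood apart, neither was called (0.74 and -0.47, adjusted p = 0.111 and 0.0622, edgeR). Both calls were also lost without Piezo1 cKO 2 or Piezo1 cKO 3 alone, with cyclic loess and with a replicate block. That of Igfbp3 was lost with total counts too. Eif4ebp1 and Nedd4, the other abundant genes of the axis, had differences of -0.23 and 0.05.

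Partners of DLK1, necdin, PLAGL1 and PEG3 were the last list. None of 7 tested was called in edgeR (0.784% over all genes), with 1 at an unadjusted p under 0.05 (1019 of 8551) and 0 called by DESeq2 (0.674%), and the median log2 difference was -0.13. Myod1, the myogenic factor, stood at 1459 ± 102.5 CPM in control and 1310 ± 205 CPM in Piezo1 cKO (SD, n = 3 each). Cdkn1a and Trp53, which act on the cell cycle with necdin, had differences of -0.13 and -0.19.

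Summed markers of 3 cell types were higher in every Piezo1 cKO library than in every control library. Of the 11 myocyte genes, 8 were tested, 1 was called (Actn3, a sarcomere gene, log2 fold change 1.20, standard error 0.18, adjusted p = 1.0e-05, edgeR) and 7 of the 8 lay higher without overlap, against 0.784% called and 8.2% higher without overlap over all genes. H19 was highest in Piezo1 cKO 1 and the myocyte sum in Piezo1 cKO 2, whereas both were lowest in control 2. Summed over 5 pericyte and smooth muscle genes, led by Cspg4, levels were 44.6, 31.2 and 43.7 CPM in control and 54.5, 58.1 and 83.5 CPM in Piezo1 cKO, and of these genes only Cspg4 was tested and it was not called. For 6 tenocyte and bone genes, led by Scx, they were 345, 207.5 and 312 CPM against 376, 421 and 407 CPM, and 1 of 4 tested was called, against 0.784% of all genes. This was Sp7, an osteoblast factor (log2 fold change 1.70, standard error 0.27, adjusted p = 0.00338, edgeR), which went from 34.3 to 109 CPM and made up most of the difference in the sum, whereas Scx overlapped between the groups at 196 and 215 CPM. Their part in the result on H19 and the other members was not tested.

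Summed markers of 3 other lineages overlapped between the groups. The 7 fibro-adipogenic genes, led by Col3a1 and with Pi16 at 0 counts in every library, summed to 198.5, 199.7 and 349.5 CPM in control and 285, 308 and 269 CPM in Piezo1 cKO. Within this list Dcn fell, as given above, whereas Ly6a, the gene of the sort marker Sca1 (named after its values were seen and not tested), had 2, 2 and 3 counts in control against 5, 8 and 9 in Piezo1 cKO. The 4 endothelial genes, led by Tek, had 14.4, 5.58 and 1.18 CPM against 3.80, 5.28 and 18.6 CPM. The 3 leukocyte genes, led by Cd68, had 10.1, 27.9 and 12.99 CPM against 10.1, 14.5 and 10.6 CPM.

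**Figure D5:**
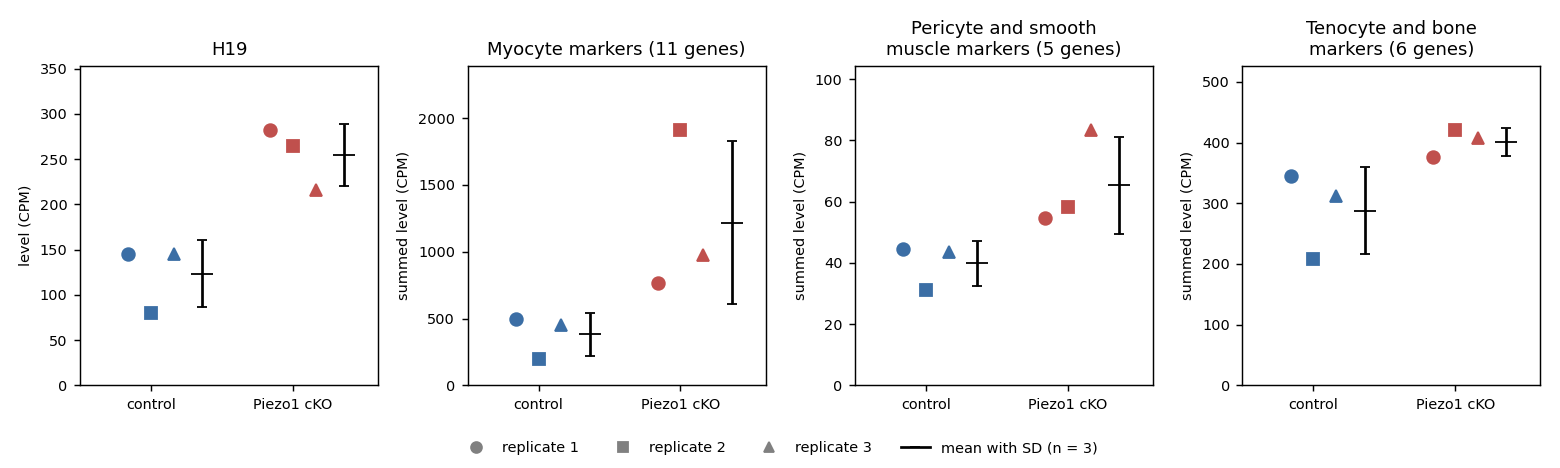
Level of H19 and summed levels of myocyte, pericyte and smooth muscle, and tenocyte and bone markers in CPM (vertical axes from 0) for control (blue) and Piezo1 cKO (red), with the mean and SD (n = 3 each). All 4 measures are lowest in control 2, but H19 is highest in Piezo1 cKO 1 and the myocyte markers in Piezo1 cKO 2.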

How the data were processed

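The 6 libraries, 3 per group, were sequenced from MuSCs after 3 d of culture. The authors primed cDNA with barcoded oligo-dT, mapped reads to GRCm38 with STAR 2.7.9a, assigned them with featureCounts 2.0.1 and counted UMIs with UMI-tools 1.1.1, and the deposited values are these counts per gene, not normalised. Settings for multi-mapping reads and strand are not stated, and with oligo-dT primers most counts come from the 3' part of transcripts. Totals ran from 726378 to 931168 per library. Floors and the intervals of pooled counts cover counting error only. The interval of Grb10, from edgeR, and p-values measure the spread between these libraries. The paper gives N = 3 for the isolation of cells per group, without saying that each came from a separate mouse.

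Counts were analysed in R 4.3.3 with edgeR 4.0.16 (TMM, minimum count of 10, robust quasi-likelihood test, Benjamini-Hochberg adjustment over all 8551 genes, called at an adjusted p under 0.05). Piezo1, which did not pass the filter, was kept for its own value. CPM are counts per effective library size. Alternatives were DESeq2 1.42.0, DESeq2 size factors, total counts, cyclic loess from limma 3.58.1, no filter, 10 counts in every library, a replicate block, an adjusted p under 0.1 and each library left out. Leaving out both libraries numbered 2 was chosen after seeing the data. The calculations were tested on simulated counts.

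The members, gene lists and tests were chosen with earlier results of these data known. Genes named are the members, Piezo1, every listed gene called, the 3 most abundant tested genes of each list (for cell types the most abundant and those at 0) and the 5 genes nearest in profile to H19 and Peg3, and others are marked. Positions are from GENCODE M21 and sequences from RefSeq, both on GRCm38. The results of 1 list of cell type markers are not reported here.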

Additional observations from a re-analysis of the deposited data

How the results depend on the processing

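H19 was higher in Piezo1 cKO under every alternative, with log2 fold changes of 0.81 (without control 2) to 1.20 (without control 3) when a library was left out, and it was called in all but the fit without Piezo1 cKO 2 (1.02). H19 was chosen with this contrast known, so its calls are a description. Over all genes, 67 were called, against 27 with DESeq2, 38 with cyclic loess, 129 with no filter, 124 at an adjusted p under 0.1 and 6 (without Piezo1 cKO 2) to 174 (without Piezo1 cKO 1) with a library left out. Of the other members, 1 (Mest) was called at an adjusted p under 0.1 and 0 to 2 with a library left out (Mest and Plagl1 without Piezo1 cKO 1, Ndn without control 3), and Grb10 ranged from -0.048 (without Piezo1 cKO 1) to 0.22. The other imprinted genes gave 0 calls with DESeq2, where Dcn had no adjusted p, and 0 with 10 counts in every library, which removes Dcn, and 1 with any library left out. Imprint maintenance gave 0 calls with DESeq2, total counts and both libraries numbered 2 left out, and 0 to 1 with a library left out. The partners of H19 gave 0 to 1 with a library left out. The miR-675 and let-7 targets gave 1 with DESeq2 size factors, no filter and 10 counts in every library, 2 at an adjusted p under 0.1, and 0 to 2 with a library left out. The IGF axis gave 3 with no filter, 1 with total counts, 0 with cyclic loess and with both libraries numbered 2 left out, and 0 to 2 with a library left out. The partners of DLK1, necdin, PLAGL1 and PEG3 gave 1 at an adjusted p under 0.1 and 0 to 1 with a library left out. Piezo1 ranged from 0.14 to 0.93 with a library left out and turned to -0.093 with both libraries numbered 2 left out. Apart from the removal of Dcn and the smaller number of libraries, the cause was not tested.

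Same-numbered libraries did not deviate together (correlations of -0.143, -0.203 and 0.0121). These values cannot tell whether such libraries shared a day of isolation or culture, and the labels give only the number. With a replicate block 46 genes were called, the log2 fold change of H19 was 1.06, and imprint maintenance and the IGF axis gave 0 calls, with Hells, Igfbp2 and Igfbp3 at adjusted p = 0.0582, 0.140 and 0.0539 in edgeR. Members with fewer than 10 counts a library are limited by depth.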
